A study of Mus musculus with 8 samples.

Results

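Primordial germ cells (PGCs) are the founders of eggs and sperm. In the mouse they are induced in the proximal posterior epiblast by bone morphogenetic protein signals from the neighbouring extraembryonic tissue, come to lie at the base of the allantois, and later move through the hindgut towards the gonads. Their specification depends on the repressor Prdm1, and early PGCs are known by Dppa3, a maternal-effect factor, by Ifitm3, an interferon-induced membrane protein, and by Dnd1, an RNA-binding protein of germ cells. The cells described here are those that the authors' combined annotation labels PGC, which were 224 of the 28723 cells in the deposited table. The study's methods state more retained cells than the table holds, and all shares below are of the cells in the table. Of these, 201 were Eomes-KO and 23 were WT host cells. The deposited table has no gene counts, so those 4 markers could not be read in the cells and the label could not be checked against them. How far the deposited annotations share the label is described, and since the combined one was assembled from the other two, that is no independent check.

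Single-cell transcriptomes came from chimeric mouse embryos labelled E8.5. Wild-type C57BL/6 blastocysts had been injected with male tdTomato+ embryonic stem cells (ESC) carrying a CRISPR-Cas9 null allele of Eomes, a T-box transcription factor of the primitive streak. 4 independent ESC clones were used, embryos of a clone were pooled, and each pool was sorted into tdTomato+ Eomes-KO and tdTomato− WT host cells, which gave 4 libraries of each. WT host cells carry neither tdTomato nor the null allele. Injected WT ESC were not sequenced in this series, so the loss of Eomes and the origin of the cells from ESC cannot be told apart. Since the sort sets how many cells of each genotype were loaded, all comparisons below are of shares within a library and not of absolute cell numbers.

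Libraries are named by genotype and number of cells. They held 602 to 3465 Eomes-KO and 2414 to 8133 WT host cells, and 19370600 to 66414390 unique molecular identifiers (UMIs, counts of captured transcripts) per library. Median UMIs per cell were 8901 to 32559.5 in Eomes-KO and 5124 to 11002 in WT host libraries. A cell barcode was found in more than 1 library 80 times, which involved 3 PGCs, and no barcode was shared between 2 PGCs.

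The same cells carried the PGC label in nearly all cases in each annotation. The authors transferred labels from the 15 nearest cells of a gastrulation atlas, once with the original and once with the extended atlas annotation. All 224 PGCs were PGC in the original annotation, and 223 of them (99.6%) were PGC in the extended one. The 1 exception was an Eomes-KO cell of the library of 1153 cells, which the extended annotation called lateral plate mesoderm and in which 5 of the 15 neighbours were PGCs. Conversely, 4 cells were PGC only in the extended annotation. Among them were 1 surface ectoderm and 1 caudal mesoderm cell of that same Eomes-KO library, and 1 surface ectoderm and 1 intermediate mesoderm cell of the WT host library of 8133 cells. The extended annotation therefore counted 202 Eomes-KO and 25 WT host PGCs.

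Support for the label was high in both genotypes. All 15 neighbours were atlas PGCs for 141 of 201 Eomes-KO PGCs (70.1%, exact binomial 95% interval 63.3% to 76.4%) and for 15 of 23 WT host PGCs (65.2%, 42.7% to 83.6%). A score, the fraction of neighbours with the label, of at least 0.5 was reached by 189 Eomes-KO and 22 WT host PGCs, which left 12 and 1 below it. These intervals, like every binomial interval here, cover counting error only. The score helped to choose the label, so it is given as a description. Libraries differed in it. The median score was 1 in all but 2 of the 8 libraries, the exceptions being 0.867 in the Eomes-KO library of 602 cells, where 4 of 12 PGCs had all 15 neighbours, and 0.733 in the WT host library of 8133 cells, where 2 of 5 did.

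**Figure D1:**
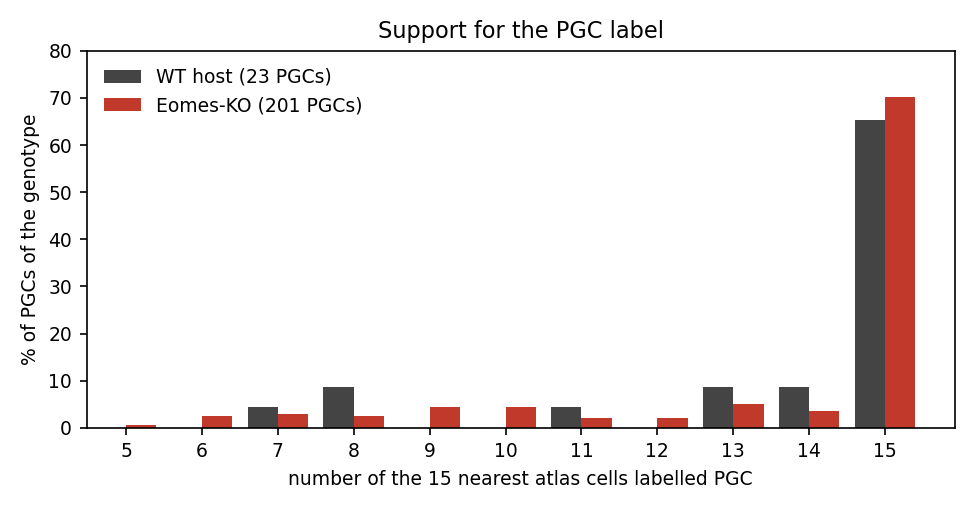
Number of the 15 nearest atlas cells that are labelled PGC (horizontal axis) against the percent of a genotype's PGCs (vertical axis), for 23 WT host PGCs (dark grey) and 201 Eomes-KO PGCs (red). All 15 neighbours were PGCs for 65.2% of WT host and 70.1% of Eomes-KO PGCs, with a thin tail down to 7 and 5 neighbours.

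PGCs made up a far larger share of each Eomes-KO library than of any WT host library. Shares are given of epiblast-derived cells, which leaves out visceral, parietal and extraembryonic endoderm and extraembryonic ectoderm as the authors did, since injected ESC rarely form them. Among Eomes-KO libraries, PGCs were 12 of 601 cells (2.0%), 49 of 1150 (4.26%), 52 of 3345 (1.55%) and 88 of 3465 (2.54%). WT host libraries held 1 of 2395 (0.0418%), 8 of 3758 (0.213%), 9 of 5153 (0.175%) and 5 of 7978 (0.0627%). The lowest Eomes-KO share, in the library of 3346 cells, was thus above the highest WT host share, in that of 3791 cells, and their exact binomial 95% intervals did not touch (1.16% to 2.03% against 0.0919% to 0.419%). Put as a frequency, there was 1 PGC among 23.5 to 64.3 Eomes-KO cells and 1 among 470 to 2395 WT host cells.

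The mean share was 2.59% ± 1.19 (SD) over the 4 Eomes-KO libraries against 0.123% ± 0.0836 (SD) over the 4 WT host libraries, a difference of 2.46 percentage points (two-sided exact permutation test over libraries, p = 0.029, which is as small as 4 against 4 can give). In edgeR's quasi-likelihood test across all 33 cell types with at least 10 cells, the log2 fold change was 4.34 (standard error 0.57, adjusted p = 1.1e-05), or 20.2-fold. Of the 33 types, 69.7% passed the test in either direction and 21.2% passed as higher in Eomes-KO, and in 21.2% all 4 Eomes-KO shares lay above all 4 WT host shares. Passing the test was thus common among the types, in this comparison of shares. PGCs had the highest fold change of the 33 types, ahead of amniotic ectoderm at 3.32 (standard error 0.59), caudal mesoderm at 2.45, lateral plate mesoderm at 2.43 and the allantois at 2.02. They also stood first under all other scalings, filters and annotations and with each library left out, while their distance to amniotic ectoderm did not pass a test of its own, given with the ratios between types.

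**Figure D2:**
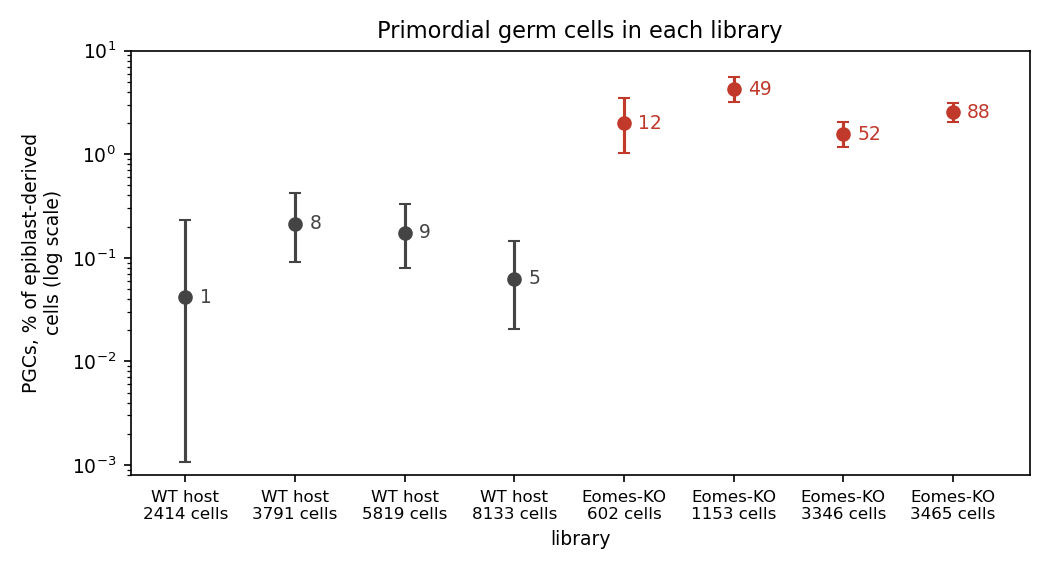
PGCs as a percent of epiblast-derived cells (vertical axis, log scale) in each of the 8 libraries (horizontal axis), with exact binomial 95% intervals and the number of PGCs beside each point. WT host libraries (dark grey) lie between 0.0418% and 0.213% and Eomes-KO libraries (red) between 1.55% and 4.26%.

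Eomes-KO cells were on the whole sequenced more deeply, and the difference in share was seen in shallow and in deep cells. Among cells with fewer than 10000 UMIs, 78 of 2702 Eomes-KO (2.89%, exact binomial 95% interval 2.29% to 3.59%) and 15 of 13218 WT host epiblast-derived cells (0.113%, 0.0635% to 0.187%) were PGCs. With at least 10000 UMIs, the counts were 123 of 5859 (2.10%, 1.75% to 2.50%) and 8 of 6066 (0.132%, 0.057% to 0.26%), the latter from 2 of the 4 WT host libraries, with 5 and 3 PGCs. These counts sum cells over the libraries of a genotype. The Eomes-KO library of 3465 cells had a median of 8901 UMIs per cell, within the range of the WT host libraries, and its PGC share was 2.54%. Whether depth bears on the difference in share was not tested. Among cells whose 15 neighbours all carry their label, a restriction added after looking at the data, the edgeR log2 fold change was 4.68 (standard error 0.69, adjusted p = 1.2e-09).

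Shares of a library add up to a fixed total, so a fall in some types is enough to lift others. For this reason PGCs were also set against single cell types of the posterior embryo, near which they arise. Relative to the allantois, which grows out towards the chorion and later supplies the vessels of the umbilical cord, there were 15.8, 42.6, 9.65 and 21.3 PGCs per 100 allantois cells in Eomes-KO libraries of 602, 1153, 3346 and 3465 cells. In WT host libraries of 2414, 3791, 5819 and 8133 cells the values were 1.85, 10.5, 3.83 and 1.75. The groups overlapped by 1 library on each side, since the WT host library of 3791 cells lay above the Eomes-KO library of 3346 cells. With 0.5 cells added to each count, the mean log2 ratio was -2.36 ± 0.89 (SD, n = 4) for Eomes-KO against -4.67 ± 1.09 (SD, n = 4) for WT host. The difference of 2.32 is 4.98-fold, and it did not pass (exact permutation test, two-sided p = 0.057, adjusted p = 0.095 over 5 ratios).

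Caudal epiblast, the posterior remnant of the pluripotent epiblast from which trunk tissues still arise, gave a similar picture. Per 100 caudal epiblast cells there were 24.5, 67.1, 31.1 and 55.3 PGCs in the Eomes-KO libraries, in the same order. The WT host libraries had 1.82, 36.4, 4.27 and 3.23. Here too it was the WT host library of 3791 cells that overlapped, with 8 PGCs beside only 22 caudal epiblast cells, while the other 3 lay far below all Eomes-KO libraries. The mean log2 ratio differed by 2.71, or 6.53-fold (-1.27 ± 0.67 against -3.98 ± 1.74, SD, n = 4 each, exact permutation p = 0.086, adjusted p = 0.11), and by 3.57 without that library (exact p = 0.057, the smallest that 4 against 3 allow).

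The remaining ratios were chosen after the data were seen. Neuromesodermal progenitors (NMPs), which give rise to spinal cord and somites, were the clearest. There were 57.1, 100, 27.5 and 106 PGCs per 100 NMPs in Eomes-KO, against 1.04, 3.86, 8.04 and 2.34 in WT host, with no overlap. That is a difference of 4.23 in the mean log2 ratio, or 18.8-fold (exact permutation p = 0.029, adjusted p = 0.095). Counted together with NMPs and caudal epiblast, PGCs made up 12.7% to 28.7% of these 3 types in Eomes-KO and 0.658% to 3.38% in WT host libraries. Against caudal mesoderm, which lies behind the somites, the difference was 1.85, or 3.61-fold (exact p = 0.057, adjusted p = 0.095). The groups overlapped there by the WT host library of 3791 cells, with 28.6 PGCs per 100 caudal mesoderm cells. Amniotic ectoderm, the inner lining of the amnion, has the fold change nearest to that of PGCs, and relative to it the difference was 1.20, or 2.30-fold, with overlapping groups (17.6 to 132 against 11.1 to 88.9 PGCs per 100 cells, exact p = 0.23, adjusted p = 0.23). These ratios could not be compared among deep cells alone, since 2 of the 4 WT host libraries held no PGC with at least 10000 UMIs. The share of PGCs thus passed its tests against all epiblast-derived cells, and no ratio to a single type passed the correction over 5 ratios. The NMP ratio had the smallest exact p that 4 against 4 can give. By itself such a p cannot pass that correction, so the failure does not decide whether the groups differ.

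**Figure D3:**
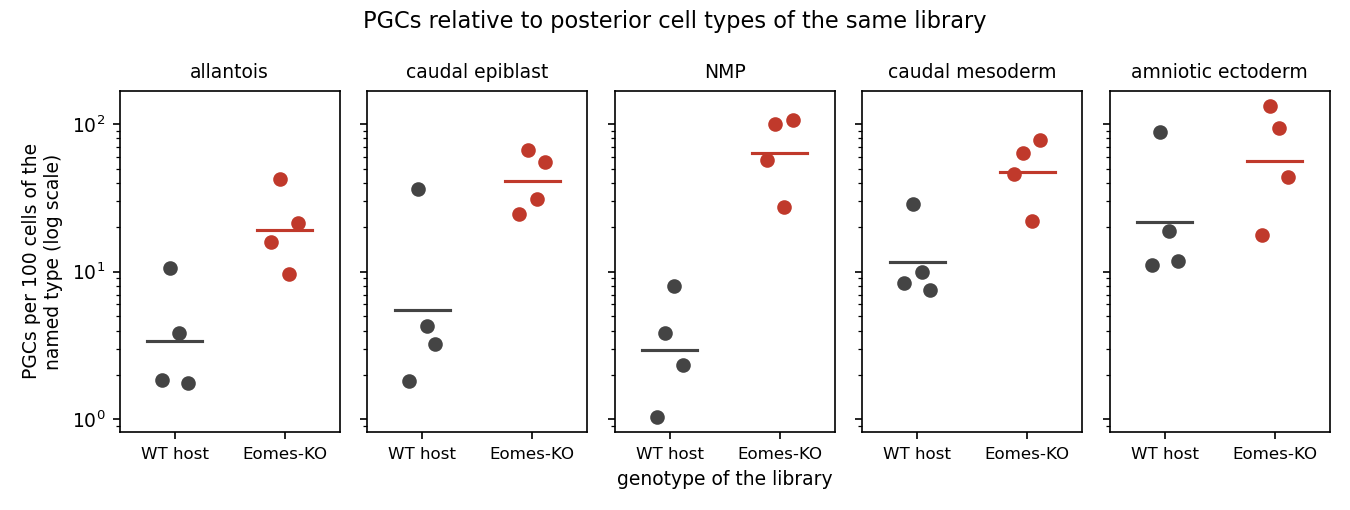
PGCs per 100 cells of the named type in the same library (vertical axis, log scale, shared by the 5 panels), for 4 libraries each of WT host (dark grey) and of Eomes-KO (red), with bars at the geometric mean. Groups are apart for NMPs and overlap for amniotic ectoderm. They overlap by 1 WT host library, of 3791 cells, for the allantois, caudal epiblast and caudal mesoderm, where it stands at 10.5, 36.4 and 28.6.

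PGCs mapped to atlas stages E7.5 or E7.75 more often than other epiblast-derived cells did. This cut was chosen after the data were seen. The authors also transferred the sampling stage of the atlas neighbours, from E7.5 to E8.5. In Eomes-KO libraries, 14 PGCs mapped to E7.5, 107 to E7.75, 43 to E8.0, 20 to E8.25 and 17 to E8.5, so that 121 of 201 mapped to E7.5 or E7.75 (60.2%, exact binomial 95% interval 53.1% to 67.0%). Of the 23 WT host PGCs, 18 mapped to E7.75, 4 to E8.0 and 1 to E8.5 (78.3% at E7.75, interval 56.3% to 92.5%). Other epiblast-derived cells mapped to E7.5 or E7.75 in only 5.14% of cases in Eomes-KO and 8.15% in WT host libraries, the allantois in 2.19% and 6.0%, and caudal epiblast, which mapped mostly to E8.0, in 10.5% and 8.35%. At the latest stage the order to caudal epiblast was the reverse. No caudal epiblast cell mapped to E8.5, while 17 Eomes-KO PGCs and 1 WT host PGC did. Early mapping was not particular to PGCs. With cells of all libraries summed, PGCs (62.1%) ranked 3 of 33 types by this share. Nascent mesoderm (90.9%) and haematoendothelial progenitors (72.7%), each of 11 cells, ranked above them, and notochord (44.1%) came next. The excess over the other epiblast-derived cells was seen in each of the 7 libraries with at least 5 PGCs, from 31.9 percentage points in the WT host library of 8133 cells to 83.9 in that of 3791 cells.

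This contrast is a description. Stage and cell type were read from the same 15 neighbours, so a PGC can only take a stage at which the atlas holds cells like it, and the atlas cells were not analysed here. Stage calls of PGCs were also less settled. The median share of neighbours that agreed on the stage was 0.4 in Eomes-KO and 0.467 in WT host PGCs, against 0.533 and 0.6 in the other epiblast-derived cells. Between the genotypes, the PGC share at E7.5 or E7.75, a measure chosen after the data were seen, was 59.2% ± 10.0 over 4 Eomes-KO libraries and 72.1% ± 27.8 over 3 WT host libraries (SD, exact permutation p = 0.51). That difference of -12.9 points became -29.0 when the WT host library of 8133 cells was left out and -4.54 when that of 5819 cells was. The share at E8.5 was 6.69% ± 4.98 and 6.67% ± 11.5 (exact p = 1, the smallest possible being 0.057). With 4 against 3 libraries neither comparison could have passed 0.05.

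**Figure D4:**
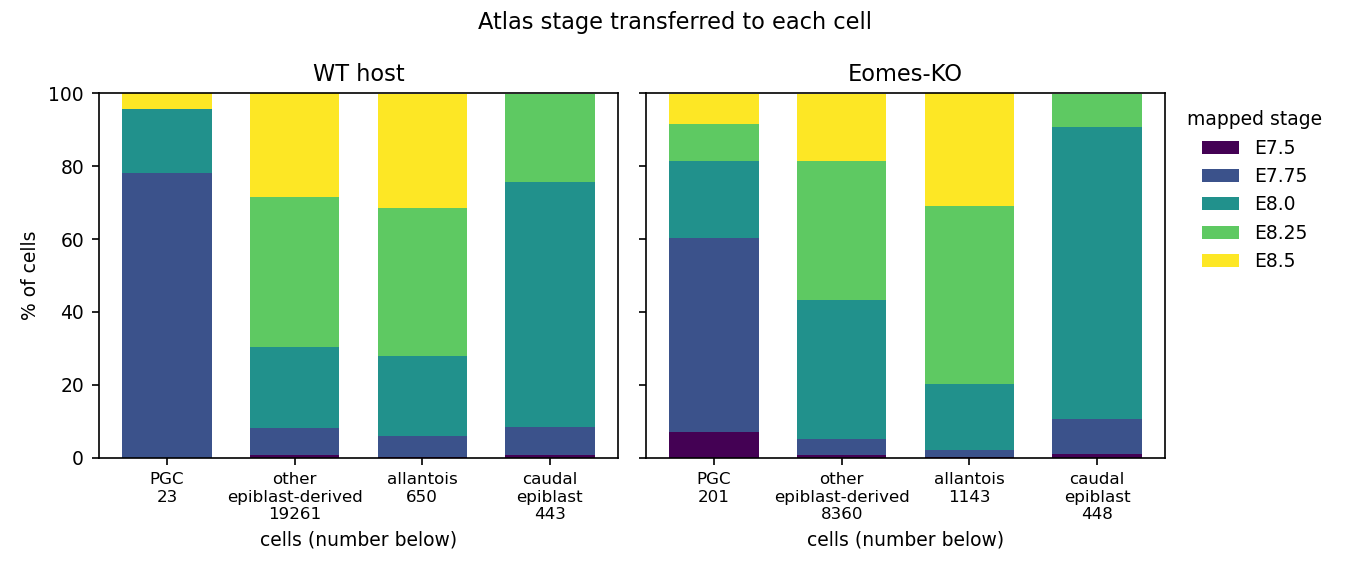
Percent of cells (vertical axis) by mapped atlas stage (colours, E7.5 dark to E8.5 light) for PGCs, other epiblast-derived cells, allantois and caudal epiblast in WT host (left) and Eomes-KO (right) libraries, cells summed over the 4 libraries, with numbers of cells below the bars. E7.5 and E7.75 together take 78.3% of WT host and 60.2% of Eomes-KO PGCs, and under 11% of every other bar.

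Quality measures were then compared between PGCs and the other epiblast-derived cells of the same library, over the 7 libraries with at least 5 PGCs. Ribosomal protein transcripts took a larger percent of UMIs in PGCs in 7 of 7. Library medians in PGCs were 28.1%, 27.7%, 29.3% and 27.4% in the Eomes-KO libraries of 602, 1153, 3346 and 3465 cells, against 25.8%, 27.5%, 27.1% and 25.8% in the other cells. In the WT host libraries of 3791, 5819 and 8133 cells they were 32.4%, 29.0% and 28.5%, against 27.0%, 25.3% and 25%. The mean difference was 2.67 percentage points ± 1.68 (SD, n = 7), with an exact sign-flip permutation p of 0.016, the smallest that 7 libraries allow. The adjusted p was 0.047 over the 6 measures planned, and 0.078 over the 5 quality measures alone, without mapped stage. Leaving out any 1 of the 7 libraries also ended the call (2.22 to 3.09 points, adjusted p 0.062 to 0.094, where 6 libraries allow no exact p under 0.031). In the Eomes-KO library of 1153 cells the difference was only 0.15 points. It was smaller in all 4 Eomes-KO libraries (0.15 to 2.35) than in the 3 WT host libraries (3.48 to 5.36), a contrast between genotypes that sits at the smallest possible value (exact permutation p = 0.057). This contrast was not planned and its p is not corrected. The same contrast for each other measure, mapped stage included, gave an exact permutation p of 0.23 or more. The authors left ribosomal and mitochondrial genes out of the mapping, so these measures had no part in choosing the cells, but cells above 35% ribosomal or 5% mitochondrial transcripts had been removed.

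Mitochondrial transcripts were higher in PGCs in 6 of 7 libraries, by 0.639 percentage points ± 0.496 (SD, n = 7, exact sign-flip permutation p = 0.031, adjusted p = 0.062 over 6 measures). The PGC medians were 1.96% to 2.44% in Eomes-KO and 1.61% to 2.89% in WT host libraries, and those of the other cells 1.33% to 1.97% and 1.41% to 1.91%. The WT host library of 8133 cells was the 1 that went the other way. Against allantois cells, both measures were higher in 7 of 7 libraries, by 0.882 points for mitochondrial and 4.39 points for ribosomal transcripts (exact sign-flip p = 0.016 and adjusted p = 0.031 for each). Against caudal epiblast, both were higher in 6 of 7, by 0.602 and 2.40 points (exact p = 0.031, adjusted p = 0.094 for each).

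For depth and doublet score, no difference of medians between PGCs and the other cells passed. With the mean of cells in place of the median, the differences in log2 UMIs (-0.15) and doublet score (-0.0483) did pass. The median UMI count was lower than that of the other cells in 6 of 7 libraries, with a mean log2 difference of -0.13 ± 0.14 (SD, n = 7, exact sign-flip permutation p = 0.078, adjusted p = 0.11), and the number of genes detected was lower in 5 of 7 (-0.04 on the log2 scale, exact p = 0.25). The doublet score, above 0.5 of which the authors had removed cells, was lower in 5 libraries, equal in 1 and higher in the Eomes-KO library of 602 cells (mean difference -0.0386 ± 0.0452, SD, n = 7, exact p = 0.094, adjusted p = 0.11). The highest doublet score of any PGC was 0.47, in that same library.

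Between the genotypes, the quality of PGCs was compared over 4 Eomes-KO and 3 WT host libraries, and no measure passed. The PGC median was 35106.5, 16528, 14189 and 7868.5 UMIs for Eomes-KO, against 10694.5, 9340 and 4767 for WT host, with overlapping groups (difference of 1.03 on the log2 scale, exact permutation p = 0.17, adjusted p = 0.46 over 8 measures). Mitochondrial percent differed by -0.24 points (exact p = 0.51) and ribosomal percent by -1.83 points (exact p = 0.17, adjusted p = 0.46), Eomes-KO minus WT host, and with 1 library left out these ran from -0.646 to -0.00625 and from -2.57 to -0.603. None of the 8 comparisons could have reached 0.05 with 4 against 3 libraries.

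**Figure D5:**
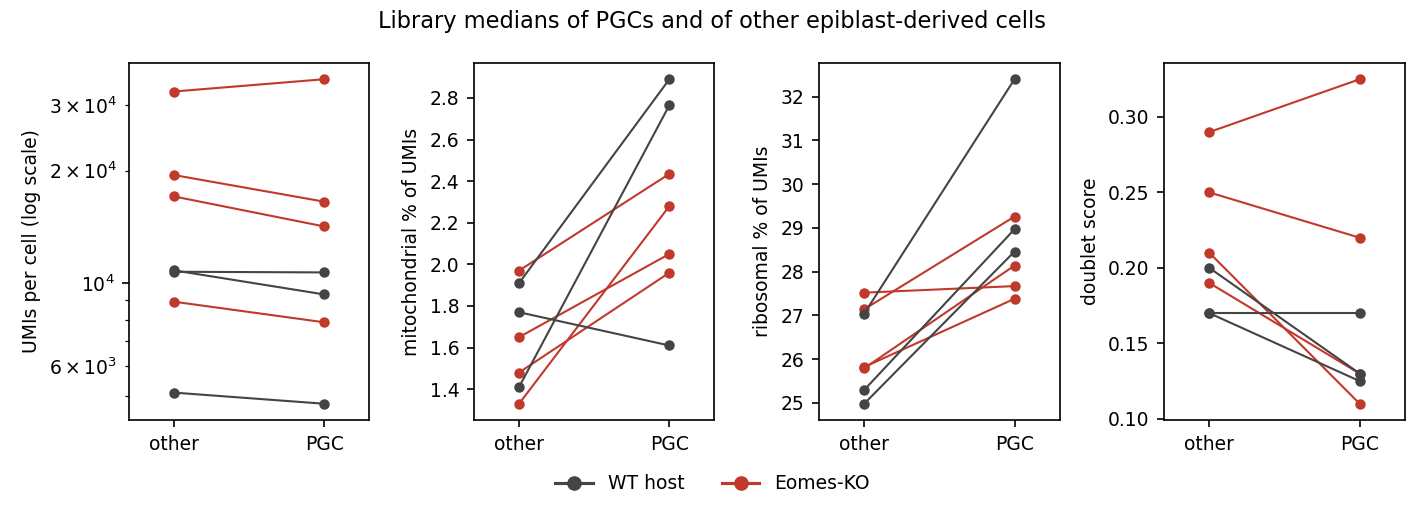
Library medians (vertical axes: UMIs per cell on a log scale, mitochondrial and ribosomal percent of UMIs, doublet score) of other epiblast-derived cells and of PGCs, joined by a line for each of the 7 libraries with at least 5 PGCs (red for Eomes-KO, dark grey for WT host). Ribosomal percent is higher in PGCs in all 7, mitochondrial percent in 6, and UMIs per cell are lower in 6.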

How the data were processed

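Reads were counted by the authors as UMIs, with Cell Ranger version 6.0.1 and the mm10 genome (also in the submitters' processing notes). They filtered cells and doublets and mapped each library to atlas cells of E7.5 to E8.5. The deposited table gives per cell raw counts of UMIs and of genes, the mitochondrial and ribosomal percent of UMIs, a doublet score, and label scores as a fraction of the 15 nearest atlas cells. The ratio of PGCs to another type was taken on the log2 scale with 0.5 cells added to both. Genotype was taken from the tdTomato status of each library in the table. The pool of a library is not given there, so the pool term of the study's own test was not fitted.

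Cells were counted per library and type and tested with edgeR 4.0.16 (glmQLFit, glmQLFTest, R 4.3.3) for all types of 10 cells or more. Library size was the number of epiblast-derived cells, without other scaling. The adjustment was Benjamini-Hochberg with a threshold of 0.05, and a standard error is the log2 fold change over the root of F. Values per library were compared by exact permutation, two-sided, and PGCs with other cells by sign flips over libraries with at least 5 PGCs. Cells were not used as replicates in any test. The exact binomial intervals do count cells, and they leave out the spread between libraries. By the study's methods each genotype has 4 libraries from separate pools, and each pool gave 1 library of each genotype, so the 8 libraries come from 4 pools. All tests treat libraries as independent, and the p-values do not account for shared pools. Tests were checked on simulated data whose spread was set in advance, and for edgeR with fewer types changed than passed here. How the tests behave at the spread of these data was not checked. Alternatives used DESeq2 1.42.0 and limma 3.58.1. Cell types named are PGC, posterior types, amniotic ectoderm, every label a PGC carries elsewhere and, for mapped stage, the types ranked next to PGCs. The members and lists were chosen with earlier results of these data known. The number of PGCs per library, 1 to 88, sets the precision. Atlas map coordinates were used only to describe positions.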

Additional observations from a re-analysis of the deposited data

Results flagged for a closer look

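Of 30 sets of library values tested for a single distant library, 2 had one, and chance gives about 1 in 20. The median label score of PGCs was 0.867 in the Eomes-KO library of 602 cells and 1 in the other 3 Eomes-KO libraries, so the distance is exaggerated by tied values. The original and extended annotations agreed on 98.0% of PGCs in the Eomes-KO library of 1153 cells and on 100% in the other 3, a gap that rests on 1 cell of 49.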

How the results depend on the processing

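The edgeR log2 fold change of PGCs stayed positive and past the threshold under all 14 other settings, from 3.35 (DESeq2, ratio size factors) to 4.84 (DESeq2, poscounts size factors) with adjusted p of at most 4.7e-05, and from 4.00 to 4.67 with 1 library left out. Against it, the median of all types shifted by -0.14 under TMM, -0.91 under ratio and 0.62 under poscounts factors. With the extended labels 48 of 68 types passed in place of 23 of 33. The difference in share was 2.15 points for medians of libraries (exact p = 0.057) and 1.91 to 2.81 with 1 library left out (p = 0.057, the smallest possible there). Within libraries, the ribosomal difference was 2.22 to 3.09 with 1 library left out (adjusted p 0.062 to 0.094), 2.40 against caudal epiblast and 1.54 over the 4 libraries with 10 PGCs. The E8.5 share differed by -18.6 to -13.2 with 1 library left out, by -11.6 over those 4 libraries and by 6.68 against caudal epiblast, no cell of which mapped to E8.5. With the mean of cells, differences of -0.15 for log2 UMIs and -0.0483 for the doublet score passed. So did 0.591 for mitochondrial and 2.77 for ribosomal percent. Against the allantois, 0.882 for mitochondrial percent passed, as did the ribosomal percent. The E8.5 share also passed there, but it is given as a description only. Stage and cell type were read from the same atlas neighbours, so its test cannot show a difference in stage. Between genotypes, the label score difference ran from -0.0333 to 0.10 and that of the E8.5 share from -3.31 to 6.69 with 1 library left out. The PGC ratio to amniotic ectoderm gave -0.12 with at least 10000 UMIs, where 2 of 4 WT host libraries held no cell of either type, so that the 0.5 added cells set the value and it says nothing of direction. Of 288 alternatives, 249 kept direction and call, and the cause of the others was not tested. With 10 PGCs per library no WT host library was left, so genotype comparisons were not run there. No paired analysis was possible because no column or name shows the embryo pool of a library. The 23 WT host PGCs limit every statement on that group.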

Other observations

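The 224 PGCs had 98 distinct closest atlas cells, 92 for Eomes-KO and 19 for WT host PGCs. Of these, 13 were shared, which is 14.1% of the Eomes-KO and 68.4% of the WT host ones, and 16 of 23 WT host PGCs had a closest atlas cell that was also that of an Eomes-KO PGC. The 19 atlas cells of WT host PGCs could make up only a small part of the 92, so the percents of the genotypes cannot be compared. A single atlas cell was the closest to 14 PGCs of 5 libraries, 12 Eomes-KO and 2 WT host, and the next most used to 6. Another 32 cells of other labels shared one of the 98, among them 16 lateral plate mesoderm, 11 intermediate mesoderm, 3 caudal mesoderm and 2 surface ectoderm cells. On the atlas map, 194 PGCs (175 Eomes-KO and 19 WT host) lay within 1 unit of their median position, where 16 cells of other labels lay, 7 intermediate mesoderm, 7 caudal mesoderm and 2 surface ectoderm. The other 30 PGCs lay farther away, up to 10.3 units. Map position and label both come from mapping to the atlas, so the small number of other labels is a description only.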
